A study of Homo sapiens with 30 samples.

Results

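The zinc finger genes of chromosome 19 were taken as all RefSeq genes of GRCh38 on that chromosome whose symbol is ZNF followed by digits only. There were 241 such genes among 59788 annotated genes, 240 of them protein coding and 1 a transcribed pseudogene. Peaks no farther than 1000 bp from a gene's start or end were assigned to it (gene-end peaks), as were peaks inside the gene farther than that from its ends (gene-body peaks). This gave 206 of 21268 H3K4me3 peaks, 171 at gene ends and 35 in gene bodies, and 244 of 63580 H3K27ac peaks, 189 at gene ends and 55 in gene bodies.

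The cells were OCI-Ly1, an established human diffuse large B-cell lymphoma line, grown in culture and given JIB-04 at 150 nM or 500 nM, or 0.01% DMSO as vehicle. JIB-04 inhibits histone demethylases of the Jumonji family. The length of treatment is not given in the sources used here, and all groups are of the same cell line. Chromatin immunoprecipitation and sequencing measured H3K4me3, a methylation mark of active promoters, and H3K27ac, an acetylation mark of active promoters and enhancers, in 2 libraries per mark and treatment. Levels are CPM, the read count of a peak relative to all reads in tested peaks after scaling between libraries, with n = 2 for every mean and SD. The series concerns heterochromatin fidelity in lymphoma, and the 2 doses ask whether these active marks moved with the inhibitor at these genes.

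Most of these genes encode proteins with a string of C2H2 zinc fingers that read DNA, many with a KRAB domain that recruits the corepressor TRIM28 (KAP1) and the H3K9 methyltransferase SETDB1. Their best known targets are transposable elements, whose H3K9me3 they help to set. The genes arose by repeated duplication and lie in clusters, and in many cell types their own bodies and 3′ ends carry H3K9me3 while their promoters carry active marks. Because members resemble each other, reads from near-identical copies can be lost or split, and how such reads were treated is not given in the sources used here.

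Promoter windows of 300 bases, 250 before to 50 after a RefSeq start, were listed for 210 of the 241 genes (261 starts, GRCh38.p14), and these also gave the strand. The windows below were chosen because they carry the contrasts described later. The first 3 have their CG dinucleotides in capitals. ZNF69 (chr19:11887532-11887831, plus strand, 8 CG) had the largest called H3K4me3 fall at 500 nM against DMSO, ZNF428 (chr19:43619580-43619879, minus strand, 37 CG) a called H3K4me3 rise, and ZNF667 (chr19:56477296-56477595, minus strand, 42 CG) no peak of either mark.
ZNF69: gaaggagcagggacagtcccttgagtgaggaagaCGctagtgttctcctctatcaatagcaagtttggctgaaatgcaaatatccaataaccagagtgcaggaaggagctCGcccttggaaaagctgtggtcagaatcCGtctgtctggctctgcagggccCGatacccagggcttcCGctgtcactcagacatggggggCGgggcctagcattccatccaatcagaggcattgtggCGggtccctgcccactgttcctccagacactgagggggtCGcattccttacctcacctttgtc
ZNF428: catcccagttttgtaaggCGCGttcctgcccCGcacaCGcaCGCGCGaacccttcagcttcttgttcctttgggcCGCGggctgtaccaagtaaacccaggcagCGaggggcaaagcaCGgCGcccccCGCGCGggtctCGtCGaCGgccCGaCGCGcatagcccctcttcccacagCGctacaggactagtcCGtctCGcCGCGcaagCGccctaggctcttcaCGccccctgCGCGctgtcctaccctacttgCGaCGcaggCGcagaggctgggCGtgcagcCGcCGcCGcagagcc
ZNF667: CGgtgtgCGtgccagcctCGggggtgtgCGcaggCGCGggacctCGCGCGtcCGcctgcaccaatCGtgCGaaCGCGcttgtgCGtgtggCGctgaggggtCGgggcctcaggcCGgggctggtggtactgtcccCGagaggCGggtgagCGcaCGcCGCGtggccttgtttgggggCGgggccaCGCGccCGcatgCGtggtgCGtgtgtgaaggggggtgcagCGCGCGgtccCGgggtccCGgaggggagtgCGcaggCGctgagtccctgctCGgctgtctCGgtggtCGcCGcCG

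In the next 2 windows the capitals mark CCGGAAG, the core motif of ETS factors, on the printed strand. ZNF682 (chr19:20039206-20039505, minus strand, 16 CG) held it from base 147 and had the H3K27ac rise. ZNF568 (chr19:36916082-36916381, plus strand, 25 CG) held it from base 213 and had no peak of either mark.
ZNF682: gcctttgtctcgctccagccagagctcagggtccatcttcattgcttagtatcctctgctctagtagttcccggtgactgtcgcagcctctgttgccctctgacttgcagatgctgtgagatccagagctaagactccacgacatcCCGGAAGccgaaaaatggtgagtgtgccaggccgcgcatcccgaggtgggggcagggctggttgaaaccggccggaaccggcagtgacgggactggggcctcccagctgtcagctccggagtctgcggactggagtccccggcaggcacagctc
ZNF568: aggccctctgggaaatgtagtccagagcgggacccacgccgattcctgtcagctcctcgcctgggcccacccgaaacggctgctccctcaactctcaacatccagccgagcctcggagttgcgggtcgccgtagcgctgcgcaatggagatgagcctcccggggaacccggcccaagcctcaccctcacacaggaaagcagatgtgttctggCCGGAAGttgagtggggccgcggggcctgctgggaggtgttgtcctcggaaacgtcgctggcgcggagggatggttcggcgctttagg

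Most genes had both marks or neither. Both marks were found at 182 genes, H3K4me3 alone at 4 (ZNF358, ZNF221, ZNF415 and ZNF772), H3K27ac alone at 0, and neither at 55. At gene ends, 165 of 240 protein-coding members had both marks and 71 neither. These counts were 178 and 47 of 237 ZNF genes elsewhere, and 10712 and 7481 of all 19970 protein-coding genes. Among protein-coding members, 70.4% had an H3K4me3 gene-end peak, against 60.9% of all protein-coding genes, 61.8% of the other genes of chromosome 19 and 79.3% of ZNF genes on other chromosomes. A gene without a peak has no value in the count tables, so its level is unknown rather than 0.

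The CG content of the start did not separate marked from unmarked members. Promoter windows with an H3K4me3 peak had a median of 20 CG and those without one also had 20, whereas over all promoters the medians were 26 and 4. At 6 to 14 CG, 81.0% of the 63 member windows had an H3K4me3 peak, against 33.5% of the 6079 windows of all genes. At 15 or more CG, the shares were 78.1% of 192 and 79.0% of 17133. The richest unmarked starts were those of ZNF536 and ZNF541, with 49 CG each, and ZNF667. The poorest starts under an H3K4me3 peak were 1 of ZNF446, with 3 CG, 1 of ZNF331, with 5, and those of ZNF69 and ZNF737, with 8 each. All members but 1 are protein coding. The 27195 genes behind all promoters outnumber the 19970 protein-coding genes and so include noncoding ones. Gene type was not matched. Windows of 1 gene can overlap, and the comparison is a description.

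**Figure D1:**
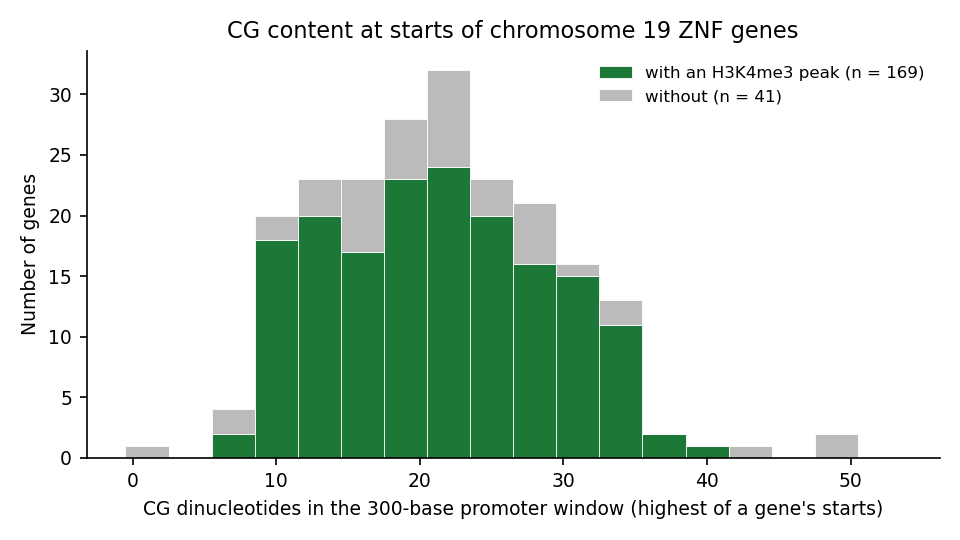
Number of CG dinucleotides in the 300-base promoter window of each gene (x axis, highest of the gene's listed starts) against the number of genes (y axis), for 169 genes with an H3K4me3 peak and 41 without. Bars are stacked. Grey lies over the same range as green, and the grey bars at the right end are ZNF667, ZNF536 and ZNF541.

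Short motifs were searched on both strands of each window. CCGGAAG was found in the windows of 98 of the 210 members (46.7%), in 37.9% of 195 ZNF genes elsewhere, 16.3% of 1300 other genes of chromosome 19 and 12.2% of all 27195 genes. The motif did not follow the mark: 39.4% of the member windows with H3K4me3 and 41.4% of those without held it. CCAAT was in 56.2% of members and 39.7% of all genes, and TATAAA in 7 of 210 members and 3804 of 27195 genes. ACTACAA, the core read by ZNF143, was in 13 of 210 members and 931 of 27195 genes. A match describes letters in a window and is not evidence of a bound factor.

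The 55 unmarked genes lay partly side by side. They formed 31 runs along the chromosome, of which 21 held 1 gene. The longest had 9 neighbours from ZNF208 to ZNF728 (chr19:21939815-23003176), which included ZNF257, ZNF676, ZNF729, ZNF98, ZNF492, ZNF99 and ZNF723. The next, with 5, ran from ZNF610 to ZNF578 (chr19:52330221-52516882). The listed starts of the longest run had a median of 11.5 CG and those of the second 20.5. Of the unmarked genes with a listed start, 80.5% had at least 1 with 15 or more CG, close to the 76.3% of the marked ones.

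The H3K4me3 peaks of these genes were mostly peaks at starts, also where they lay inside the gene. Of the 35 gene-body peaks, 31 lay at an annotated inner start, 3 at no listed start or end, and 1 in a gene without a listed start. The starts had a median DMSO level of 34.6 CPM per kb of peak and the 3 inner peaks 2.26 CPM per kb. ZNF584 had the highest level per length, 58.7 CPM per kb, at its inner start, followed by the gene-end peak of ZNF44 with 56.1. H3K27ac reached more into the genes, with 21 of 55 gene-body peaks away from every listed start, at a median of 6.55 CPM per kb against 15.3 at starts. Its highest level per length was at the ZNF428 start, with 27.8 CPM per kb.

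The cell identity was checked on markers. The 7 B-cell genes MS4A1, CD79A, CD79B, PAX5, CD22, BCL6 and MEF2B each had an H3K4me3 gene-end peak, with summed levels of 1529 to 1720 CPM per library. Peaks were found at 2 of 4 T-cell genes (none at CD3E and CD2; sums 24.1 to 29.8), 1 of 4 myeloid genes (CD14; none at LYZ, CSF1R and MPO; 9.72 to 17.8) and 3 of 4 epithelial genes (none at CDH1; 64.0 to 72.0). EPCAM gave nearly all of the last, since KRT8 and KRT18 share a peak of 0.392 CPM in DMSO. H3K27ac had gene-end peaks at each of the 7 B-cell genes, 3 of 4 T-cell, 0 of 4 myeloid and 1 of 4 epithelial genes. That of CD2 held 73.1 and 82.8 CPM in DMSO, and the stronger one of CD3E 7.36 and 7.62. In H3K4me3, CD14 and the KRT8 and KRT18 peak rose at 500 nM, by 0.67 and 1.81 on the log2 scale. EPCAM fell in the same mark (−0.13, edgeR adjusted p = 0.0351). Of the 7 B-cell genes 5 had a called fall and 1, MEF2B, a called rise (0.11, edgeR adjusted p = 0.0183). CD79A is among the 5, with 1 of its 2 peaks lower (−0.18) and the other not called (0.062). Over all tested gene-end peaks 20.3% were called lower and 19.6% higher. The part of these markers in the results below was not tested. Total counts in tested peaks were 9680558 to 12322167 for H3K4me3 and 4303912 to 5344065 for H3K27ac, with median counts per peak of 263 to 328 and of 21 to 24. Between the 150 nM H3K4me3 libraries the chi-square per degree of freedom was 0.919, less than sampling noise gives. DMSO replicate 1 and 150 nM replicate 1, of different groups, stood at 0.948. Such values cannot tell separate cultures from technical repeats. The 150 nM libraries were kept as 2 samples, as labelled. The H3K27ac libraries at 150 nM stood apart from each other at 2.38, above the 1.94 to 2.18 between DMSO and 500 nM libraries.

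At 500 nM the H3K4me3 peaks of these genes fell more often than they rose, and by little. Of the 171 gene-end peaks, 35 were lower and 7 higher than in DMSO at an edgeR adjusted p under 0.05, 24.6% in all. Over all 13026 tested gene-end peaks the share called was 39.9%, with 20.3% lower and 19.6% higher. The called falls ran from −0.39 to −0.11 on the log2 scale, with a median of −0.18. In gene bodies 4 of 34 tested peaks were lower and 1 higher (14.7%, background 39.1%). The peak left out of the test was a body peak of ZNF274 with 1 to 13 reads. Gene-body peaks of the background were weaker, with a median of 3.83 CPM in DMSO against 52.1 for the members. They also lay over 1000 bp from the ends of every gene, those of the members only from the ends of member genes. For gene-end peaks of ZNF genes elsewhere the share was 27.6% of 192 (18.2% lower, 9.38% higher), and for other genes of chromosome 19 it was 39.8% of 757 (27.1% lower, 12.7% higher).

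The summed H3K4me3 level of the 171 gene-end peaks was 10584 and 10626 CPM in the DMSO libraries, 10495.5 and 10501.5 at 150 nM, and 10049 and 10232 at 500 nM. Both 500 nM sums lay below the 4 others. The median log2 fold change of these peaks was −0.073, with 134 below 0 and 37 above, against −0.023 over all gene-end peaks. Of single peaks, 92 had both 500 nM libraries below both DMSO libraries and 15 had both above, 53.8% and 8.77%, where the background shares were 38.2% and 30%. Scaled by the total count in place of the trimmed mean of M values (TMM), all member peaks split into 22 lower and 11 higher calls instead of 39 and 8, and the gene-end median was −0.039.

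The level of a peak mattered to this comparison. When all tested H3K4me3 peaks were ordered by mean abundance and cut into 5 equal bins, 53 member peaks lay in the middle bin, 97 in the next higher and 15 in the highest. In the middle bin, 1.89% of the member peaks rose and 22.6% fell, while 30.7% of the 2838 other gene-end peaks rose and 14.7% fell. The medians there were −0.107 and 0.030. In the next, 3.09% rose and 19.6% fell, against 9.46% and 21.5% of 3543 others, with medians of −0.071 and −0.043. In the highest, 20.0% of the 15 fell, against 33.7% of 3830 others.

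**Figure D2:**
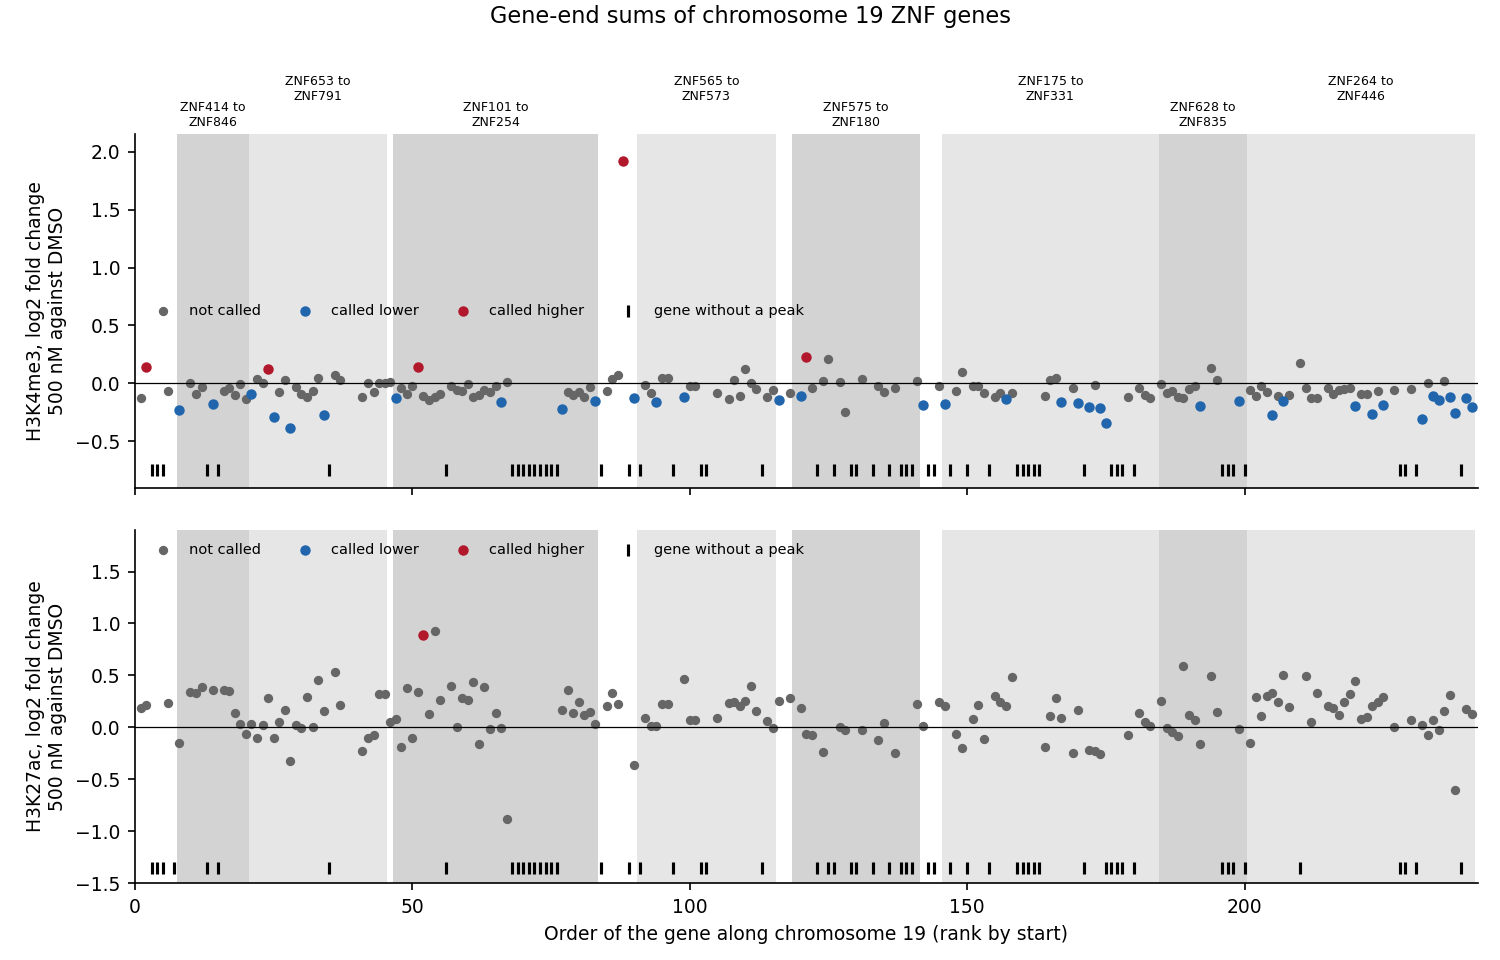
Log2 fold change of the summed gene-end counts of each gene, 500 nM against DMSO (y axis), in order along the chromosome (x axis), for H3K4me3 (top) and H3K27ac (bottom). Shading marks the clusters of at least 10 genes, coloured points passed the edgeR test, black ticks are genes without a peak, and a peak shared by 2 genes is drawn for both. Blue points lie in every shaded cluster of the top panel, and the bottom panel has 1 red point, ZNF682.

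ZNF69 had the largest called fall at 500 nM against DMSO. Its start peak (chr19:11887410-11888694) held 23.5 and 22 CPM under DMSO, 22.8 and 20.2 under 150 nM and 17.8 and 17.1 under 500 nM. Both 500 nM libraries lay below all others. The log2 fold change was −0.39 (SE 0.098, edgeR adjusted p = 0.00114). ZNF491, a neighbour in the same cluster, held 37.2 and 39.1 CPM under DMSO, 35.8 and 37.5 under 150 nM and 31.8 and 30.3 under 500 nM at its start peak (chr19:11798116-11799360), with no overlap between 500 nM and the rest. It fell by 0.29 (SE 0.070, edgeR adjusted p = 0.000668). ZNF20, also of this cluster, fell by 0.27 (SE 0.061, edgeR adjusted p = 0.000219), from 58.8 and 53.3 CPM to 49.1 and 43.6, with 56 and 55.4 at 150 nM. These 3 calls held with each library left out in turn.

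ZNF415 and ZNF329 also fell, with calls that rested on single libraries. ZNF415 (chr19:53132057-53133014) went from 14.1 and 13.1 CPM in DMSO, and 14.6 and 14.1 at 150 nM, to 9.95 and 11.7 at 500 nM, by 0.34 on the log2 scale (SE 0.130, edgeR adjusted p = 0.0317). The adjusted p was 0.180 when DMSO replicate 1 was left out and 0.317 for 500 nM replicate 1. ZNF329 showed a fall at its outer 5′ end (chr19:58154275-58155520), from 34.6 and 40.2 CPM to 29.1 and 31.3, with 34.8 and 34.4 at 150 nM. The change was −0.31 (SE 0.074, edgeR adjusted p = 0.00072, and 0.067 without DMSO replicate 2). At the listed inner start of the same gene, 56.5 and 58.7 CPM in DMSO stood beside 54.2 and 56.8 at 500 nM (−0.055, SE 0.055, edgeR adjusted p = 0.468). The difference between the 2 starts was not tested.

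The largest rise on the log2 scale was at a very small peak. The outer 5′ end of ZNF599 (391 bp) had 8 and 2 reads under DMSO, 2 and 5 under 150 nM and 22 and 15 under 500 nM, so both treated libraries were above the rest but all values were close to the lowest that could be tested. The log2 fold change was 1.92 (SE 0.489, edgeR adjusted p = 0.0012, and 0.082 without DMSO replicate 2). The main start of the gene, an inner one, held 33.7 and 31.5 CPM in DMSO and 36.6 and 34.3 at 500 nM and was not called (0.12, SE 0.072). ZNF701 rose by 0.41 (SE 0.167, edgeR adjusted p = 0.0466) at a start with 7.19 and 6.09 CPM under DMSO, 6.81 and 5.68 under 150 nM and 9.01 and 8.68 under 500 nM. Its adjusted p was 0.240 without DMSO replicate 2, 0.173 without 500 nM replicate 1 and 0.080 without 500 nM replicate 2.

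ZNF428 was the clearest rise at a strong start. Its peak (chr19:43618497-43620542) held 73.1 and 73.4 CPM under DMSO, 70.1 and 76.3 under 150 nM and 85.7 and 86.2 under 500 nM. The 500 nM libraries lay above all others and the change was 0.23 (SE 0.048, edgeR adjusted p = 7.15e-05). The H3K27ac peak there changed by −0.065 and was not called. ZNF555, in the first small cluster, rose by 0.14 (SE 0.043, edgeR adjusted p = 0.00789), from 88.8 and 90.3 CPM to 98.1 and 99.1, with 93.3 and 88.8 at 150 nM. Its adjusted p was 0.085 without DMSO replicate 1.

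ZNF653 had a rise and a fall. Its start peak (chr19:11504643-11507543) fell from 93.9 and 91.4 CPM in DMSO, and 88.1 and 91.3 at 150 nM, to 76.5 and 80.5 at 500 nM (−0.24, SE 0.046, edgeR adjusted p = 1.47e-05). The peak at its 3′ end (chr19:11481592-11483008) rose from 22.6 and 24.8 CPM, and 22.6 and 20.1, to 30.9 and 30.3 (0.38, SE 0.083, edgeR adjusted p = 0.000212). An end of ELAVL3, which encodes a neuronal RNA-binding protein, lies within 1000 bp of the second peak. The first lies within 1000 bp of an end of ECSIT, so neither can be given to ZNF653 alone. Of all 171 gene-end peaks, 12 contained a listed start of another protein-coding gene, and 2 of those were called, both lower.

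**Figure D3:**
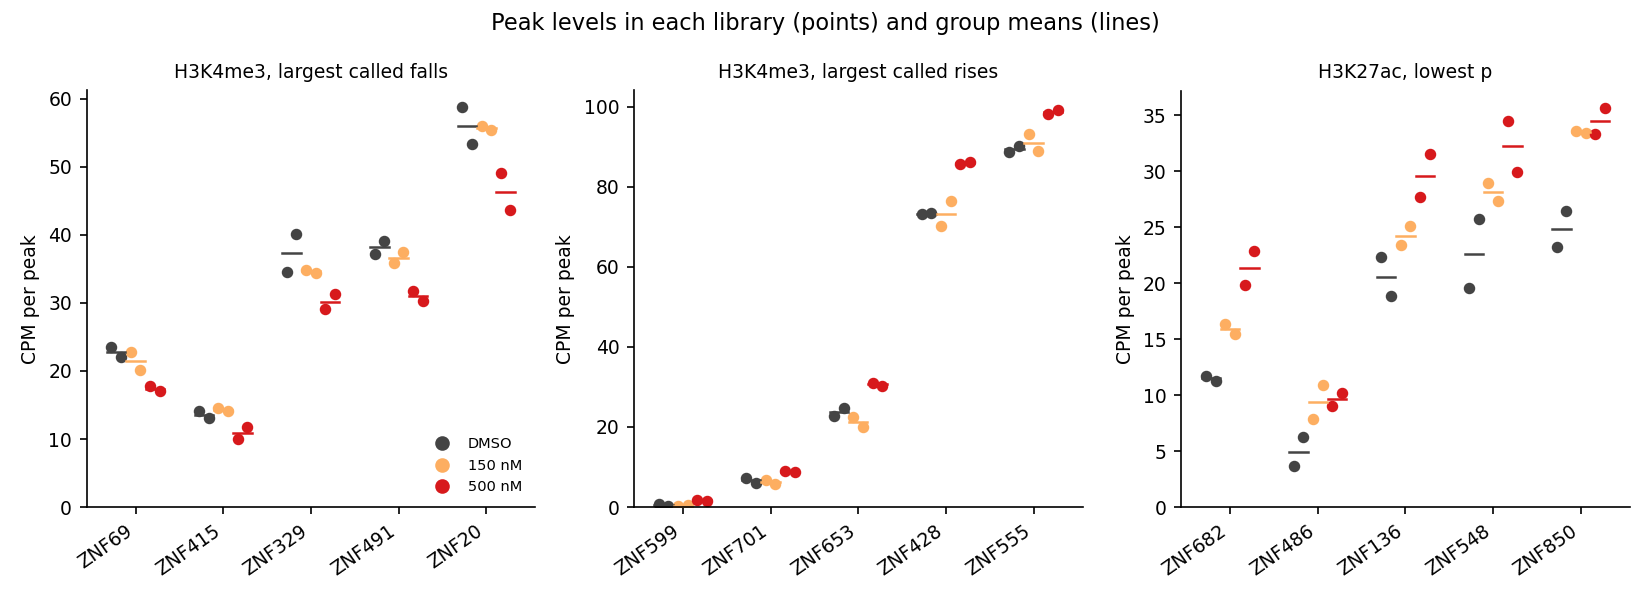
CPM of single peaks (y axis, from 0) in each library (points) with group means (lines), for the 5 largest called H3K4me3 falls, the 5 largest called rises and the 5 H3K27ac peaks with the lowest p. In the left panel both 500 nM points lie below the DMSO points for each gene, in the middle panel higher than them, and ZNF682 in the right panel goes from 11.7 and 11.2 in DMSO to 19.8 and 22.9 at 500 nM.

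Gene-body peaks were called at inner starts. ZNF444 fell from 51.4 and 51.2 CPM in DMSO, and 52.8 and 49.9 at 150 nM, to 45.3 and 42.2 at 500 nM (−0.23, SE 0.060, edgeR adjusted p = 0.00198). ZNF749 fell from 87.5 and 88.0 CPM, and 91.3 and 90.6, to 77.9 and 76.4 (−0.18, SE 0.046, edgeR adjusted p = 0.000852). ZNF442 rose from 55.2 and 56 CPM, and 56.7 and 57.5, to 63.3 and 68.1 (0.24, SE 0.054, edgeR adjusted p = 0.000263). In all 3 the 500 nM libraries did not overlap the others, and the calls held without any single library. The inner start of ZNF254 fell by 0.16 (edgeR adjusted p = 0.0357), which became 0.121 and 0.084 without DMSO replicate 1 or 2, and 0.108 and 0.102 without 500 nM replicate 1 or 2. That of ZNF563 fell by 0.13 (edgeR adjusted p = 0.0285), with 0.074, 0.095, 0.091 and 0.086 in the same order.

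Counts summed over the gene-end peaks of each gene gave 37 genes lower and 5 higher of 169 (24.9%, background 40.2%). Body sums gave 5 lower and 1 higher of 30 (20.0%, background 44.2%), and were not matched for level to that background. Among genes not yet named, ZNF304 fell most by this measure, from 48.9 ± 0.512 to 40.6 ± 1.18 CPM (−0.27, SE 0.061, edgeR adjusted p = 0.00034). ZNF586 fell from 61.0 ± 4.35 to 50.6 ± 0.697 CPM (−0.26, SE 0.057, edgeR adjusted p = 0.00016). ZNF584 fell at its outer end, from 24.5 ± 1.78 to 20.7 ± 1.10 CPM (−0.26, SE 0.094, edgeR adjusted p = 0.024), while its stronger inner start held 140 ± 8.52 and 133 ± 2.68 CPM and was not called. As a peak, the outer end of ZNF584 had an adjusted p of 0.245 when DMSO replicate 1 was left out and 0.184 for 500 nM replicate 1. ZNF441 rose from 80.8 ± 0.936 to 88.6 ± 6.20 CPM (0.13, SE 0.047, edgeR adjusted p = 0.0243). As a peak it had an adjusted p of 0.151 and 0.054 without DMSO replicate 1 or 2 and 0.449 without 500 nM replicate 2.

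Of the 47 called H3K4me3 peaks, 17 (14 lower, 3 higher) were called in each fit that left out 1 library. The 14 lay at ZNF20, ZNF69, ZNF160, the 3′ end of ZNF175 (chr19:51593223-51595309), ZNF260, ZNF266, ZNF304, ZNF444, ZNF491, ZNF586, ZNF653, ZNF749, ZNF787 and the shared peak of ZNF324 and ZNF446, and the 3 at ZNF428, ZNF442 and ZNF653. Leaving out DMSO replicate 1, DMSO replicate 2 or 500 nM replicate 1 gave 29, 31 and 29 calls, of which 27, 30 and 28 were among the 47. The DESeq2 Wald test called 5 of the 205 tested member peaks, 2.44%, where it called 17.1% of all peaks. These were ZNF586 and the ZNF653 start, lower, and ZNF428, ZNF442 and the ZNF653 3′ end, higher.

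Members with known functions were read whatever their values. ZNF91 represses SVA elements, and its start held 64.9 and 68.6 CPM under DMSO, 68.6 and 69.2 under 150 nM and 61.3 and 63.1 under 500 nM (−0.10, SE 0.052, edgeR adjusted p = 0.132). ZNF93, which represses LINE-1 elements, rose from 54.0 and 51.4 CPM, and 52.0 and 53.2, to 58.6 and 57.6. All 500 nM values were above the others, at a change of 0.14 (SE 0.055, edgeR adjusted p = 0.0452). That call was lost with any library left out, with adjusted p from 0.060 (DMSO replicate 1, 150 nM replicate 1 or 150 nM replicate 2) through 0.085 (500 nM replicate 2) and 0.207 (500 nM replicate 1) to 0.256 (DMSO replicate 2).

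ZNF417 and ZNF587 are near-identical paralogs that repress HERV-K elements, so their reads may not be fully told apart. ZNF587 held 48.2 and 46.1 CPM under DMSO, 47.3 and 46.1 under 150 nM and 41.9 and 41.2 under 500 nM and fell by 0.18 (SE 0.062, edgeR adjusted p = 0.016). The adjusted p was 0.157 without DMSO replicate 1, 0.054 without 500 nM replicate 1 and 0.070 without 500 nM replicate 2. ZNF417 held 50.5 and 51.9 CPM in DMSO and 48.7 and 49.3 at 500 nM (−0.061, SE 0.058, edgeR adjusted p = 0.453). The difference between the paralogs was not tested.

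ZNF274, which recruits SETDB1 to the 3′ ends of zinc finger genes, held 100 and 106 CPM in DMSO and 98.9 and 108 at 500 nM at its start (0.0033, SE 0.044). The groups overlapped. ZNF224, a KRAB repressor of metabolic genes, held 83.7 and 79.5 CPM and then 85.4 and 81.6 (0.034, SE 0.047), also with overlap. ZNF154 and ZNF671, known for promoter methylation in tumours, both had H3K4me3. ZNF154 fell from 32.2 and 29.7 to 27 and 27.3 CPM (−0.19, SE 0.078, edgeR adjusted p = 0.0443), and the call was lost when DMSO replicate 1 (adjusted p 0.347), 150 nM replicate 1 or 2 (0.053 and 0.052) or 500 nM replicate 1 or 2 (0.159 and 0.094) was left out. At ZNF671, 79.0 and 77.2 CPM in DMSO stood beside 70.9 and 76.6 at 500 nM (−0.089, SE 0.049, edgeR adjusted p = 0.142).

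ZNF331, an imprinted gene, had 3 H3K4me3 peaks inside the gene, each at a listed start. The middle one held 83.0 and 80.4 CPM in DMSO and 76.9 and 78.6 at 500 nM, the downstream one 51.0 and 53.2 and then 51.3 and 58.1, and the upstream one 6.04 and 5.89 and then 7.40 and 5.62. None of the 3 was called. ZNF382 and ZNF529 share a start peak of 92.4 and 91.0 CPM in DMSO and 91.3 and 99.0 at 500 nM, which was not called either (0.047, SE 0.045). ZNF568, a KRAB gene whose mouse counterpart is needed in the embryo, had no peak of either mark.

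ZNF358 and ZNF875 were, with ZNF331, the genes with most H3K4me3 peaks in the body. The 2 peaks of ZNF358 held 1.63 and 0.884 and 3.02 and 2.16 CPM in DMSO, and those of ZNF875 59.4 and 56.3 and 46.5 and 49.3 CPM. At 500 nM the ZNF875 peaks held 54.4 and 55.6 and 43.7 and 42.7 CPM, both libraries below DMSO at each, with neither called. The genes with most H3K27ac peaks in the body were ZNF791 and ZNF875, with 3 each, and ZNF563, with 2. The 3 of ZNF791 lay at no listed start and held 0.401 to 2.81 CPM in DMSO and 2.74 to 4.14 at 500 nM, from 2 to 22 reads each, and none was called.

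Neighbouring members less than 500000 bp apart were joined into 20 clusters, 8 of which held at least 10 genes and 219 genes in all. The share of genes with H3K4me3 ranged from 24 of 25 in the cluster from ZNF653 to ZNF791 (chr19:11483429-12633834) to 14 of 23 in that from ZNF575 to ZNF180 (chr19:43530835-44500522). In the pericentromeric cluster from ZNF101 to ZNF254 (chr19:19668153-24129968) it was 27 of 37, and 9 of the 10 unmarked genes were the run from ZNF208 to ZNF728. The starts of this cluster were the poorest in CG, with a median of 10, and those of the cluster from ZNF628 to ZNF835 the richest, with 30.

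The most telomeric cluster, from ZNF264 to ZNF446 (chr19:57191500-58489533, 41 genes, 37 with H3K4me3), had the most falls and the most tested gene-end peaks. Of its 34 gene-end peaks 10 were lower (29.4%, against 27.1% at other genes of chromosome 19) and 0 higher. In this cluster 31 fold changes were below 0, with a median of −0.090. Summed gene-end CPM was 2225.5 and 2264 under DMSO, 2228 and 2237 under 150 nM and 2067 and 2149 under 500 nM. The cluster from ZNF175 to ZNF331 (chr19:51571283-53580269, 39 genes) had 7 lower and 1 higher of 26, a median of −0.090, and sums of 1406 and 1399.7, 1395 and 1378, and 1322 and 1312 CPM. In both, the 500 nM sums lay below the 4 other libraries.

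The cluster from ZNF575 to ZNF180 stood at the other end. Of its 12 gene-end peaks 1 was lower (ZNF576) and 1 higher (ZNF428), with 6 fold changes on each side of 0 and a median of −0.0055. Sums were 644 and 627 CPM under DMSO, 645 and 642 under 150 nM and 642 and 631 under 500 nM, which overlap. The cluster from ZNF653 to ZNF791 had 4 lower and 2 higher of 21, with 11 below 0 and 10 above, and held the 3 genes ZNF69, ZNF491 and ZNF20 as well as the rise of ZNF441. Its sums were 1397 and 1420, 1389 and 1388, and 1358 and 1395 CPM.

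The pericentromeric cluster had 4 lower and 1 higher of 27, with 25 fold changes below 0 and a median of −0.074. Its sums of 1587 and 1566 CPM in DMSO and 1558 and 1581 at 150 nM went to 1488 and 1506 at 500 nM. The clusters from ZNF414 to ZNF846, from ZNF565 to ZNF573 and from ZNF628 to ZNF835 had 2 lower and 0 higher each, of 10, 15 and 12 peaks. No test between clusters was made. Calls are to be read against the 20.3% lower over all gene-end peaks and 27.1% at other genes of chromosome 19. Joining genes less than 250000 bp or 1000000 bp apart gave 7 clusters of at least 10 genes, and the clusters from ZNF653, ZNF565 and ZNF175 were the same in each.

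**Figure D4:**
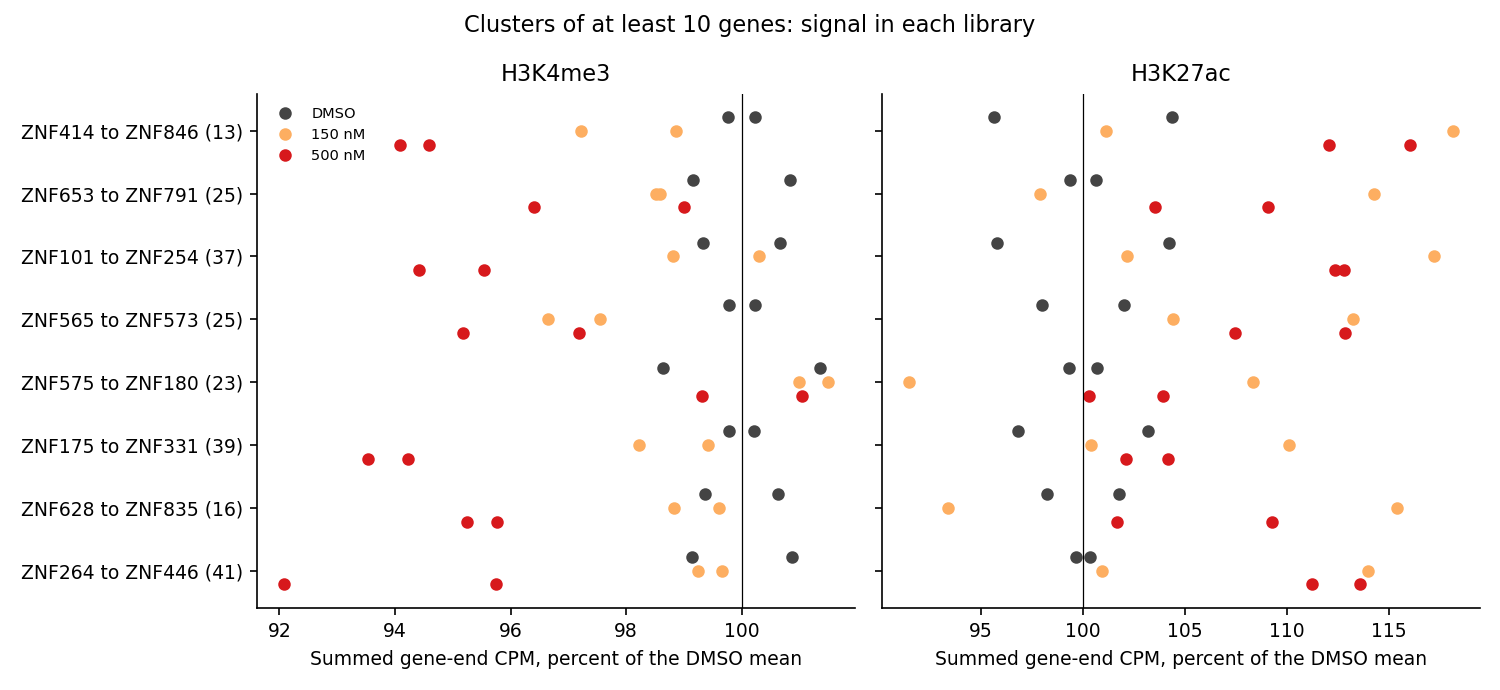
Summed gene-end CPM of each library as a percentage of the DMSO mean (x axis, not starting at 0) for the 8 clusters of at least 10 genes (rows, number of genes in brackets), H3K4me3 left and H3K27ac right. In the left panel the 500 nM points lie below the DMSO points in each row but that from ZNF575 to ZNF180, and in the right panel the 150 nM points are the most spread in each row.

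Of the strongest gene-end peaks of the 8 large clusters, by CPM in DMSO, 3 were called lower and 0 higher. Over all gene-end peaks 20.3% were lower and 19.6% higher. In the highest abundance bin, 33.7% of the gene-end peaks of other genes were lower and 4.67% higher. ZNF581 and ZNF580 share a peak of 149 and 150 CPM in DMSO and 147 and 147 at 500 nM (−0.024, SE 0.036, edgeR adjusted p = 0.621). ZNF460 (123 and 120 to 120 and 121 CPM), ZNF146 (107 and 112 to 109 and 108) and ZNF700 (110 and 103 to 104 and 105) were not called, and the sign of their small changes differed between scalings. ZNF561 held 92.0 and 90.5 CPM and then 84.4 and 85.9 (−0.10, SE 0.044, edgeR adjusted p = 0.0662). ZNF766 fell by 0.18 (SE 0.047, edgeR adjusted p = 0.00209, and 0.094 without DMSO replicate 2), from 83.2 and 90.7 to 75.8 and 77.6 CPM.

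ZNF101 and ZNF576 were the other called ones. ZNF101 fell from 115 and 119 to 110 and 104 CPM (−0.13, SE 0.041, edgeR adjusted p = 0.0104, and 0.071 when DMSO replicate 2 or 0.120 when 500 nM replicate 2 was left out). ZNF576, whose peak also holds the start of IRGQ, fell from 132 and 133 to 124 and 121 CPM (−0.11, SE 0.038, edgeR adjusted p = 0.0216). Its adjusted p was 0.058 and 0.066 without DMSO replicate 1 or 2 and 0.099 without 500 nM replicate 2.

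At 150 nM no H3K4me3 peak of these genes differed from DMSO with edgeR, nor did any of the 20402 tested peaks (0%). At an unadjusted p under 0.05 there were 9 member peaks, 8 lower and 1 higher, of 205, and DESeq2 called 0. Of all tested peaks, 4.66% had such a p. Against 150 nM, 500 nM gave 35 lower and 11 higher of 171 gene-end peaks (26.9%, background 38.8%, with 19% lower and 19.9% higher). In gene bodies it gave 3 lower and 1 higher of 34 peaks (11.8%, background 40.8%, from the same weaker peaks as above). Scaled by the total count, the 38 lower and 12 higher of both kinds became 19 and 16. In place of these 50 calls there were 20 and 26 (19 and 24 among the 50) without 150 nM replicate 1 or 2, and 18 and 30 (17 and 28) without 500 nM replicate 1 or 2, and DESeq2 called 5. This comparison shares its 500 nM libraries with that against DMSO.

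Against 150 nM, the largest called changes at peaks not yet named rested on few libraries or few reads. The start of ZNF222 held 17.7 and 18.2 CPM at 150 nM, 14.2 and 14.7 at 500 nM and 17.5 and 16.7 in DMSO (−0.32, SE 0.109, edgeR adjusted p = 0.0169). Without 1 of the 150 nM or 500 nM libraries its adjusted p reached 0.054 (150 nM replicate 1), 0.090 (150 nM replicate 2) and 0.104 (500 nM replicate 1). The 3′ end of ZNF296 had 19 and 12 reads at 150 nM, 6 and 7 at 500 nM and 10 and 7 in DMSO (−1.21, SE 0.470, edgeR adjusted p = 0.0343). With any of the 6 libraries left out, its adjusted p was 0.056 to 0.357. Rises were called at the 3′ end of ZNF628 (0.17, SE 0.060, edgeR adjusted p = 0.0256), in a peak that holds the start of NAT14, and at ZNF793 (0.16, SE 0.064, edgeR adjusted p = 0.0387). Without 1 library at 150 nM or 500 nM the former reached 0.054 to 0.180 and the latter, for 3 of the 4 libraries, 0.099 to 0.515.

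For H3K27ac nearly no peak of these genes passed the test. Of 187 tested gene-end peaks 1 was higher at 500 nM than in DMSO and 0 lower (0.535%, background 0.841% of 16174), and of 50 tested gene-body peaks 0 were called (background 0.742%). At an unadjusted p under 0.05, 18 of the 237 peaks were higher and 1 lower, and DESeq2 called 0. Of all tested peaks, 11.5% had such a p. The median log2 fold change at gene ends was 0.14, with 133 above 0 and 54 below, against 0.056 over all gene-end peaks. These medians differed by 0.082. The members' median log2 level varied between replicate libraries with an SD of 0.088, pooled over the 3 groups. That SD includes the 150 nM pair, whose libraries stood furthest apart. It is not the spread of the difference between the medians, which was not measured. Summed gene-end levels were 3432 ± 82.8 CPM under DMSO, 3665 ± 341 under 150 nM and 3743 ± 95.7 at 500 nM. The peaks were few in reads, with a median of 15.4 CPM at gene ends against 62.8 for H3K4me3.

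ZNF682 was the called gene. Its start peak (chr19:20038505-20039623) had 51 and 56 reads under DMSO, 77 and 82 under 150 nM and 105 and 117 under 500 nM, or 11.7 and 11.2, 16.4 and 15.5, and 19.8 and 22.9 CPM. The 3 groups did not overlap. The log2 fold change at 500 nM was 0.89 (SE 0.191, edgeR adjusted p = 0.00621), and at 150 nM 0.47 without a call. The adjusted p was 0.086 without DMSO replicate 1, 0.215 without DMSO replicate 2 and 0.273 without 500 nM replicate 2. The H3K4me3 peak at this start held 56.4 and 60.1 CPM in DMSO and 53.1 and 55.0 at 500 nM (−0.11, SE 0.056, edgeR adjusted p = 0.138).

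The next H3K27ac peaks by p were ZNF486, ZNF136, ZNF548 and ZNF850, all at starts and none called. ZNF486, near ZNF682 in the pericentromeric cluster, had 16 and 31 reads under DMSO, 37 and 58 under 150 nM and 48 and 52 under 500 nM (0.93, SE 0.279, edgeR adjusted p = 0.104). ZNF136 held 22.3 and 18.9 CPM under DMSO, 23.4 and 25.1 under 150 nM and 27.7 and 31.5 under 500 nM (0.53, SE 0.161, edgeR adjusted p = 0.112). ZNF548 held 19.5 and 25.7, 28.9 and 27.3, and 34.5 and 29.9 CPM (0.50, SE 0.158, edgeR adjusted p = 0.127). ZNF850 held 23.2 and 26.5, 33.6 and 33.4, and 33.3 and 35.6 CPM (0.47, SE 0.149, edgeR adjusted p = 0.133). Each was called once either 150 nM library was left out of the fit, with adjusted p of 0.010 to 0.019. A term that set DMSO replicate 2 and 150 nM replicate 2 apart, a split taken from an earlier analysis by reads on unplaced contigs, also gave 5 calls, with ZNF844 in place of ZNF136, and a median of 0.20. The contig share was 0.239% and 0.206% of reads in those libraries and 0.254% to 0.464% in the other 4, with no gap between them. For 150 nM against DMSO and for 500 nM against 150 nM, 11 and 8 peaks of these genes had an unadjusted p under 0.05. Of all tested peaks, 3.94% and 10.2% did. In both comparisons 0 peaks of these genes were called by edgeR or DESeq2 (background 0% and 0.859% of gene-end peaks). Without 150 nM replicate 1, 2 were called between 150 nM and DMSO.

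Side by side, the fold changes of the marks showed little correlation. Of the 171 H3K4me3 gene-end peaks, 165 could be paired with a tested H3K27ac gene-end peak that they overlapped by at least 1 bp, each peak being used once and the longest overlap taken. In 97 of these pairs there was an H3K4me3 fold change below 0 and an H3K27ac one above it, in 35 both were below, in 25 both above and in 8 the reverse held, most of them uncalled. The share of each sign in each mark alone gives about this many such pairs, so the 97 does not show that the marks moved oppositely at the same peaks. Spearman's rho between the fold changes was 0.089 over these pairs, and 0.670 between the DMSO levels, where both marks share peak length and position. Of the 187 tested H3K27ac gene-end peaks 1 was called, and error in these fold changes limits what the first rho can show. ZNF69 had −0.39 for H3K4me3 and −0.32 (SE 0.297) for H3K27ac, and ZNF93 0.14 and 0.34 (SE 0.149).

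**Figure D5:**
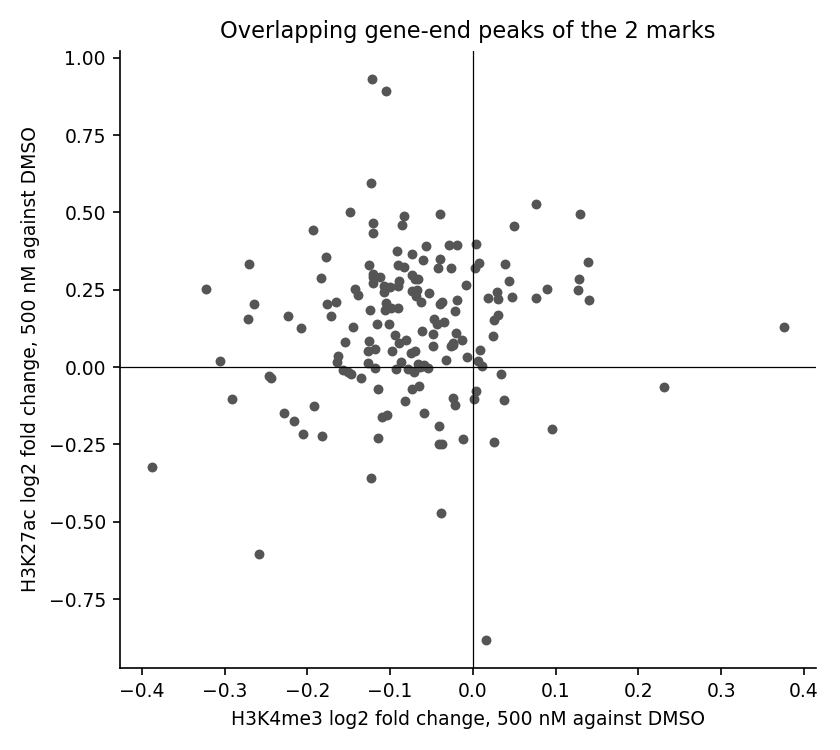
Log2 fold change at 500 nM against DMSO of H3K4me3 (x axis) and of the overlapping H3K27ac peak (y axis) at 165 gene-end pairs, each point 1 pair. Most points (97) lie in the upper left, about as many as the share of each sign in each mark alone gives. ZNF682 and ZNF486 are the 2 uppermost points.

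A list of 21 genes held 13 of the repressor machinery that these proteins use and 8 Jumonji demethylases, the family that JIB-04 inhibits. Of 14 tested H3K4me3 gene-end peaks of the machinery at 500 nM, 5 were lower and 1 higher, and of 7 of the demethylases 3 were lower and 1 higher (background 20.3% lower and 19.6% higher). The H3K9 demethylase gene KDM4B fell most, by 0.88, and its H3K27ac fell by 0.83. The others lower were the heterochromatin protein gene CBX1 (−0.15), MORC3 (−0.29), ATRX (−0.31), DAXX (−0.16), the methyltransferase gene SUV39H1 (−0.16), KDM3B (−0.15) and KDM5C (−0.16). SUV39H2 (0.10) and the H3K4 demethylase gene KDM5B (0.18) were higher. TRIM28, the shared corepressor, and SETDB1 were not called. No gene-end peak was found for KDM4C and KDM3A.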

How the data were processed

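ChIP-seq libraries of H3K4me3 and H3K27ac from OCI-Ly1 cells (12 of 30 libraries; the rest were not analysed here) were analysed from the deposited count of reads per peak, raw whole numbers made by the authors with featureCounts 2.0.1, per the file headers, which record peak regions, a minimum overlap of 0.2 of the read, assignment to all overlapping regions and no strand. The headers also record a paired-end option, while the labels give single-end reads of 50 bp. The submitters' processing notes name Trim Galore 0.6.7, BWA 0.7.17-r1188, Picard 2.27.4, MACS2 2.2.7.1, deepTools 3.5.1, edgeR 3.42.4 and GRCh38, without their roles. How multi-mapping reads were treated, and whether peaks were called on pooled libraries, is not given in the sources used here.

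Peaks were assigned to RefSeq genes (GRCh38.p14) as described above. For each mark, all 6 libraries were fitted with edgeR 4.0.16 in R 4.3.3 (filterByExpr, TMM scaling, quasi-likelihood test), p-values were adjusted by Benjamini-Hochberg over all tested peaks, and adjusted p under 0.05 was called. All tests were two-sided. CPM is the count divided by the TMM-scaled total in tested peaks, and SE is the log2 fold change divided by the square root of F. The same model was fitted to counts summed per gene. Clusters joined neighbouring members less than 500000 bp apart. DESeq2 1.42.0, limma 3.58.1 (loess offsets), Python 3.11.15, pandas 2.3.3, numpy 2.4.6 and matplotlib 3.10.9 served the alternatives and plots. On simulated data, 200 peaks were changed by 1 on the log2 scale between 500 nM and DMSO. The edgeR step recovered 79.5% of them among 20074 H3K4me3 peaks (7 false of 166 calls). Among 51865 H3K27ac peaks it recovered 42.5% (3 false of 88). In the data, called H3K4me3 falls of the members were −0.39 to −0.11, and 39.4% of all tested H3K4me3 peaks were called. Recovery and false calls under those conditions were not simulated.

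The labels do not say whether the 2 libraries of a group came from separate cultures, so p-values measure the spread between these libraries, which may be technical. Reads carry no molecular identifiers. The named genes were the 5 largest called rises and falls at gene ends and 3 in gene bodies per mark, 2 per other dose comparison, the strongest gene of each cluster of at least 10 genes, the 3 genes with most body peaks, up to 3 further gene sums and a list of genes of known role. Where fewer than 5 gene-end peaks were called, the 5 of lowest p were named. Genes named for CG content, motifs or position in a run, those called in every fit that left out a library, and a pair of genes set beside each other for both marks were chosen after their values were seen. The members and lists were chosen with earlier results of these data known. One gene of the B-cell marker list is not reported here.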

Additional observations from a re-analysis of the deposited data

How the results depend on the processing

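In place of the 47 H3K4me3 calls at 500 nM against DMSO, 46 to 49 were made with median-of-ratios size factors or other gene-end windows, 33 (11 higher, 22 lower; 30 among the 47) with total-count scaling, 40 (34 among the 47) with loess offsets and 5 with DESeq2; leaving out 1 library gave 29 to 44. Against 150 nM, 50 calls were made, and 35 (16 higher, 19 lower), 41 and 5 under the last 3 of these, 38 (14 higher, 24 lower) with a mean count of at least 50, and 18 to 52 with a library left out. The median of −0.073 was −0.039 with total-count scaling (all gene-end peaks 0.011), −0.048 with loess offsets (0.006) and −0.050 at a mean count of 50 or more, and −0.092 to −0.059 with a library left out. The 48 called gene sums were 31 with total-count scaling (9 higher, 22 lower), 2 with DESeq2 and 27 to 45 with a library left out. For H3K27ac, the 1 call became 5 with DMSO replicate 2 and 150 nM replicate 2 set apart by a term, 5 in the 4 libraries of the contrast alone, 0 with DESeq2 and 0 to 5 with a library left out. Its 1 gene sum became 9, 6 and 0 in the same order, and 0 to 6. The 0 calls of H3K27ac at 150 nM became 0 to 2. The H3K27ac median was 0.097 to 0.16 with a library left out. The 2 H3K4me3 gene sums called by DESeq2 were both higher, where edgeR gave 6 higher and 42 lower. Against 150 nM, the 5 H3K4me3 peaks called by DESeq2 were 3 higher and 2 lower, where edgeR gave 12 and 38.

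Replicate numbers did not pair the libraries: deviations of same-numbered libraries correlated at 0.0047 to 0.049 for H3K4me3 and at 0.0026 to 0.13 for H3K27ac. With the replicate block, the H3K4me3 counts were 47, 51 and 0 and the median −0.073, with 48 gene sums. For H3K27ac the block gave 5 called peaks at 500 nM against DMSO, 6 gene sums and a median of 0.15.

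Small uncalled H3K4me3 changes reversed. ZNF700 was 0.0022 with total-count scaling, 0.025 with loess offsets and 0.014 without DMSO replicate 1 (range with a library left out −0.076 to 0.014). ZNF146 was 0.021, 0.045, 0.0097 with a mean count of at least 50 and 0.014 without DMSO replicate 2 (−0.052 to 0.014). ZNF581 with ZNF580 was 0.0099 and 0.042, and ZNF460 0.014, 0.041 and 0.0022. ZNF529 with ZNF382 was −0.0093 without 500 nM replicate 2 (−0.0093 to 0.11). For ZNF224 leaving out DMSO replicate 2 gave −0.00349 and 500 nM replicate 1 −0.0048 (−0.0048 to 0.071). The upstream ZNF331 peak was −0.080 with loess offsets and −0.091 without 500 nM replicate 1 (−0.091 to 0.31), and the downstream one −0.024 without 500 nM replicate 2 (−0.024 to 0.16). ZNF274 was −0.000385 without a filter, −0.039 without DMSO replicate 1, −0.00020 and −0.000724 without 150 nM replicate 1 or 2, and −0.058 without 500 nM replicate 2 (−0.058 to 0.068). The causes were not tested. Median H3K27ac counts of 21 to 24 per peak limit what that mark can show.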
